A study of Mus musculus with 3 samples.

Results

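Type 1 conventional dendritic cells (cDC1 cells) of the uninjured mouse heart were taken from a library of sorted heart macrophages and dendritic cells. A cell was counted as a cDC1 cell when it carried at least 2 unique molecular identifiers (UMIs, each standing for 1 captured RNA molecule) of Xcr1 and Clec9a in sum and 0 UMIs of Cd209a. This held for 222 of the library's 1767 cells that passed quality limits (500 or more genes detected, mitochondrial UMIs no more than 10%), or 12.6% (exact Clopper-Pearson 95% interval 11.0 to 14.2%), and 8207 cells passed these limits in all 3 libraries together. The cells described against them were the 388 of the same library with at least 2 UMIs of Cd209a and none of Xcr1 or Clec9a, called Cd209a cells below. A further set of 422 macrophage cells, with at least 2 UMIs of Fcgr1 and Adgre1 in sum and none of Xcr1, Clec9a, Cd209a or Flt3, gives the level of each gene in macrophages of the same library.

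The mice behind this library were wild Type C57BL/6 animals of 8-12 wks at steady state. Hearts were digested with collagenase I, DNase I and hyaluronidase in the presence of Flavopiridol, which blocks transcription. The gate for macrophages was CD45+CD64low-hiCD11b+ and that for DCs was CD45+CD64-CD11c+MHCIIInt-high, both on live cells, and RNA was counted at its 3′ end in droplets (Chromium v2). Macrophages of Cx3cr1CreER-YFP/+:R26Td/+ mice of the same strain and age made up the other libraries, from day 11 after myocardial infarction and from steady state. The labels give neither the number of animals in a library, nor their sex, nor the proportion in which macrophages and DCs were combined, so the share of cDC1 cells describes this library and not the heart.

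Conventional DCs carry antigen to T cells, and cDC1 cells are the subset that takes up material of dead cells and presents it on MHC class I, a process called cross-presentation. Their development depends on the transcription factors Irf8, Batf3 and Id2. They recognise dying cells through Clec9a and are drawn by the chemokine Xcl1 through its receptor Xcr1, while the other conventional subset, cDC2, depends on Irf4 and carries Sirpa and Cd11b (Itgam).

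The library held 1780 barcodes and 14388327 UMIs, against 1806 and 4697 barcodes in the steady-state and day 11 macrophage libraries. The cDC1 cells were deeper than the cells set against them: the median was 12321 UMIs per cell (range 2110 to 26659), against 8784 in Cd209a cells and 5200 in macrophage cells. Median mitochondrial shares were 1.77%, 1.56% and 2.22% in the same order. Summed UMIs were 2749780 in cDC1 cells and 3566992 in Cd209a cells, so 3 UMIs correspond to 1.09 and 0.841 CPM (UMIs of a gene per 1000000 UMIs of the group). None of the 222 barcodes occurred among the filtered cells of the other libraries, although the library shared 7 barcodes with the steady-state and 11 with the day 11 library. There is 1 library of this kind, so the spread between animals is unknown: values are UMI sums per group in CPM, ratios and shares have exact 95% intervals that cover counting error only, and cells are not replicates.

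The genes of the rule are given as a description. Xcr1 lies at chr9:123852315-123862029 on the minus strand and Clec9a at chr6:129408862-129424763 on the plus strand, both protein-coding, and Cd209a lies at chr8:3743397-3748984 on the minus strand (mm10, GENCODE vM21). Among the cDC1 cells Xcr1 ranged from 0 to 11 UMIs with a median of 3, Clec9a from 0 to 7 with a median of 2, and their sum from 2 to 14 with a median of 5. Both genes had a UMI in 178 cells, Xcr1 alone in 34 and Clec9a alone in 10. In Cd209a cells the median of Cd209a was 17 UMIs (range 2 to 81). Over the whole libraries Xcr1 stood at 67.8 CPM here, against 0.222 CPM at day 11 and 0.171 CPM in the steady-state macrophages, whose gate takes CD64-bearing cells only.

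Cells just inside and just outside the limits are described without a test. The 35 cells with a sum of exactly 2 had 1800 CPM of Naaa and 979 CPM of Irf8, and the 146 cells with 4 or more had 1701 and 1204 CPM. Just outside, the 65 cells with a sum of 1 and no Cd209a had 1317 CPM of Naaa and 772 CPM of Irf8, with 1174 CPM of the macrophage gene C1qa and 29.8 CPM of Sirpa, against 76.7 and 2.55 CPM in the cDC1 cells. A further 91 cells passed the Xcr1 and Clec9a limit but held Cd209a, 73 of them a single UMI. These 91 held 1731 CPM of Naaa, 1139 CPM of Irf8, 897 CPM of Cd24a and 81.1 CPM of Itgae, against 1727, 1167, 905 and 90.6 CPM in the 222. Their Sirpa was 9.74 CPM and their C1qa 143 CPM, and the 18 of them with 2 or more Cd209a UMIs had 16.6 CPM of Sirpa and 341 CPM of C1qa.

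Clustering of the library without the 3 rule genes placed 217 of the 222 cDC1 cells in 3 of 13 clusters (97.7%, exact interval 94.8 to 99.3%) and no Cd209a cell in any of these 3. The 3 clusters held 379 cells: besides the 217, they took in 89 of the 91 cells with Cd209a, 49 cells with a sum of 1 and 24 cells with neither Xcr1 nor Clec9a, whose median depth was 5944 UMIs. The largest of them had 288 cells, 163 of them cDC1 cells by the rule. Another, with 53 cells and 33 cDC1 cells, had 165 CPM of the proliferation gene Mki67. The remaining one, with 38 cells and 21 cDC1 cells, held 2022 CPM of the cardiomyocyte genes Myl2, Tnni3 and Mb. The 3 clusters were picked by content: each held a set minimum share of the cDC1 cells and mostly cells passing the Xcr1 and Clec9a limit. The other 5 cDC1 cells lay in clusters that also held Cd209a cells. At this resolution most cDC1 cells thus clustered apart from Cd209a cells with the rule genes left out. At a resolution of 0.5, 33 cDC1 cells shared a cluster with 35 Cd209a cells, and this way of picking leaves such a mixed cluster out.

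The name cDC1 was set against 8 markers outside the rule, and 7 were at least 2-fold higher in the cDC1 cells than in Cd209a cells, where 5.62% of all genes tested were. Irf8, which lies at chr8:120736358-120756694, ranged from 1 to 51 UMIs per cDC1 cell with a median of 14 and was found in every one of them, against 22.4% of Cd209a cells. After thinning every cell to 3000 UMIs, which evens out depth, it was found in 95.4% of cDC1 cells, 9.28% of Cd209a cells and 46.0% of macrophage cells. Its level was 1167 CPM in cDC1 cells and 32.8 CPM in Cd209a cells, a ratio of 35.6 (95% interval 29.6 to 43.2), and macrophage cells held 187 CPM. Naaa, an acid amidase of lysosomes, stood at 1727 CPM in cDC1 cells and 332 CPM in Cd209a cells (ratio 5.20, interval 4.88 to 5.55). Cd24a, a small membrane glycoprotein, was at 905 CPM in cDC1 cells and 183 CPM in Cd209a cells (4.94, 4.53 to 5.40). Both were found in nearly all cDC1 cells, Naaa in 99.5% and Cd24a in 98.2%, while 83.8% and 55.4% of Cd209a cells also had a UMI of them.

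Itgae, the integrin chain CD103 that binds E-cadherin, was found in a smaller share of cDC1 cells than the other 7 markers. It had a UMI in 54.5% of cDC1 cells (interval 47.7 to 61.2%), in 1.55% of Cd209a cells and in 0.711% of macrophage cells. After thinning the shares were 21.1%, 0.531% and 0.269%. The summed level was 90.6 CPM in cDC1 cells and 1.68 CPM in Cd209a cells, a ratio of 53.8 (24.4 to 148). The 121 cDC1 cells with an Itgae UMI and the 101 without had like levels of Naaa (1811 and 1620 CPM), Cd24a (912 and 896 CPM) and Irf8 (1213 and 1110 CPM), and like depths (medians of 12640 and 11779 UMIs). Wdfy4, which is required in mouse cDC1 cells for cross-presentation of cell-bound antigen, was at 199 CPM in cDC1 cells and 39.0 CPM in Cd209a cells (5.10-fold). Tlr3, the sensor of double-stranded RNA, and the adhesion molecule Cadm1 were 34.4-fold and 18.6-fold higher. Batf3 was the exception, at 160 CPM in cDC1 cells, 114 CPM in Cd209a cells and 127 CPM in macrophage cells, a ratio of 1.40 (1.22 to 1.60).

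**Figure D1:**
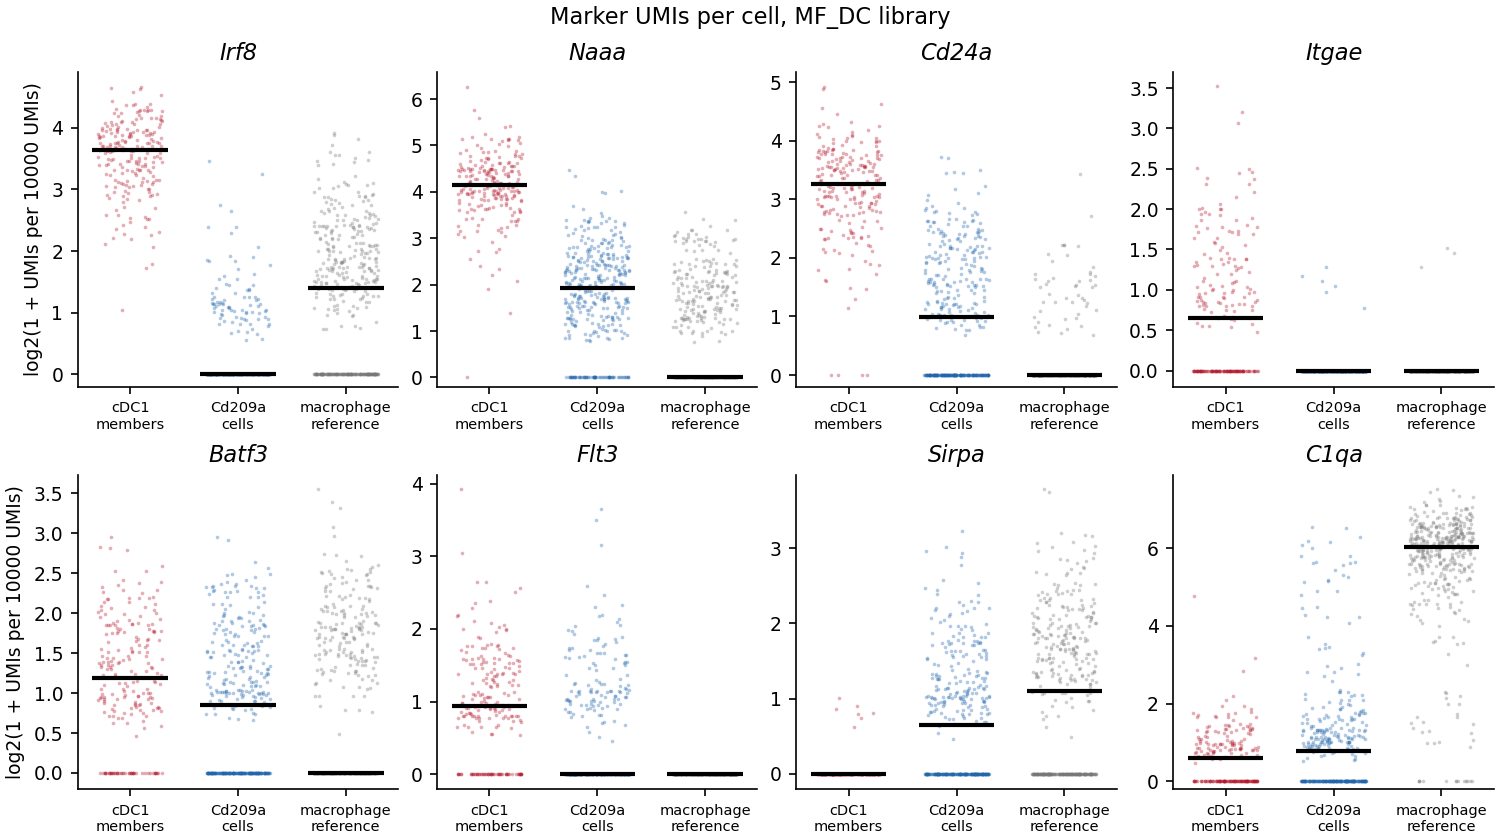
Each point is a cell of the library with macrophages and DCs (222 cDC1 cells, 388 Cd209a cells, 422 macrophage cells), plotted as log2 of 1 plus UMIs per 10000 UMIs of the cell, and the black bar is the median over cells. The medians of Irf8, Naaa and Cd24a lie above those of both other groups, Itgae is at 0 in 45.5% of cDC1 cells, Batf3 overlaps between all groups, and Sirpa and C1qa are low in cDC1 cells.

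Over all genes with at least 50 CPM in either group, 2206 in number, 124 were at least 2-fold higher in cDC1 cells (5.62%) and 209 were at least 2-fold lower (9.47%), Xcr1 and Clec9a being among the 124 and Cd209a among the 209. The median log2 ratio of all 2206 was -0.03. Of the 25 genes of a cDC1 list, 19 reached 50 CPM and 17 were at least 2-fold higher, none was lower, and the median log2 ratio was 3.53. Of the 23 genes of a cDC2 list, 18 reached 50 CPM, 15 were at least 2-fold lower in the cDC1 cells and none was higher, with a median of -4.40. Both lists were drawn up with results of these data known, so they describe the contrast and do not test it.

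**Figure D2:**
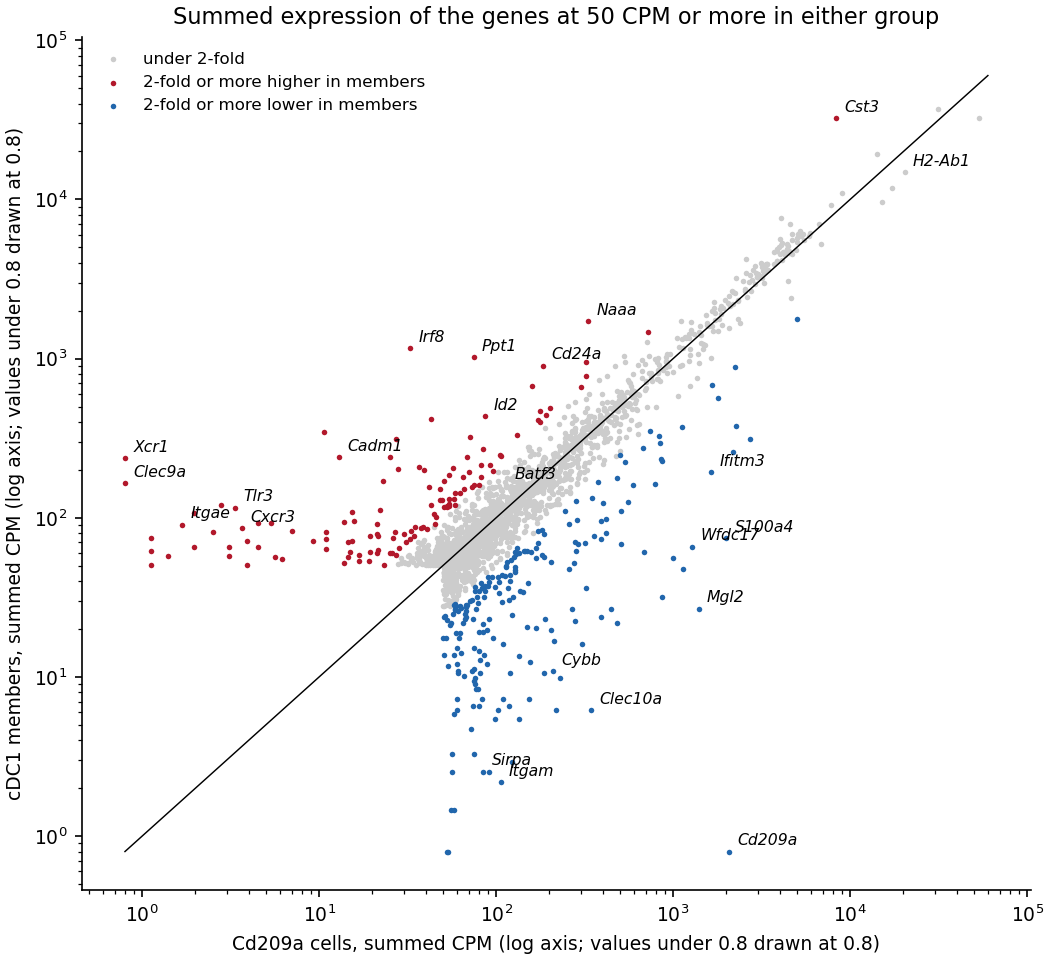
Summed CPM of the 2206 genes in cDC1 cells (vertical) and Cd209a cells (horizontal), both on log axes, with values under 0.8 drawn at 0.8 and the line of equality in black. The 124 red genes were at least 2-fold higher and the 209 blue genes at least 2-fold lower in cDC1 cells, and Xcr1, Clec9a and Cd209a, which set the groups, lie at the edges.

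Among the higher genes with the largest lower bound of the ratio, several had few UMIs in Cd209a cells; of those described next, Gcsam, Ifi205, Plpp1 and Ppt1 belong to the cDC1 list counted above. Gcsam, a signalling adaptor first described in germinal centre B cells, was at 108 CPM in cDC1 cells and 1.96 CPM in Cd209a cells (54.9-fold, interval 26.3 to 138), with a UMI in 68.5% of cDC1 cells and in 1.80% of Cd209a cells. Fcrla, an intracellular Fc receptor-like protein, was at 120 CPM against 2.80 CPM (42.8-fold). Ifi205, a member of the interferon-inducible p200 family whose near-identical copies can share reads, was at 346 CPM against 10.7 CPM (32.4-fold) and found in 90.1% of cDC1 cells. Cystm1 (74.2 CPM against 1.12 CPM) and the lipid phosphatase Plpp1 (62.2 CPM against 1.12 CPM) had ratios of 66.2 (25.5 to 245) and 55.5 (21.3 to 206). Both rest on 4 UMIs in Cd209a cells, and with thinned cells the ratio of Cystm1 was 21.3.

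The remaining leaders on the higher side had roles that no single list covers. Ppt1, the lysosomal enzyme that removes palmitate from proteins, was at 1023 CPM in cDC1 cells and 74.6 CPM in Cd209a cells (13.7-fold, 12.1 to 15.6) and was found in 99.1% of cDC1 cells. Agpat3, an acyltransferase of phospholipid synthesis, was at 50.6 CPM against 1.12 CPM, again 4 UMIs in Cd209a cells. Cyp8b1, known as a sterol hydroxylase of bile acid synthesis in the liver, was at 57.1 CPM in cDC1 cells, 1.40 CPM in Cd209a cells and 0 UMIs in macrophage cells, and it had a UMI in 47.3% of cDC1 cells. Pglyrp1, a peptidoglycan-binding protein, and P2ry14, a receptor for nucleotide sugars, were 32.1-fold and 21.1-fold higher.

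Of 28 listed regulators of transcription, 9 reached 50 CPM, and 4 of these (Irf8, Id2, Mycl and Notch2) were at least 2-fold higher and 1, Zeb2, lower, where 5.62% and 9.47% of all genes tested were. Id2, an inhibitor of E proteins that cDC1 development requires, was at 434 CPM in cDC1 cells and 86.9 CPM in Cd209a cells (4.99-fold). Mycl, a Myc family member used by DCs, was at 54.9 CPM against 6.17 CPM (8.90-fold), and Notch2, a receptor, at 91.3 CPM against 45.1 CPM (2.02-fold, interval 1.65 to 2.48). Zeb2, which opposes the cDC1 fate in mice, was 16.6-fold lower, at 6.18 CPM in cDC1 cells, 103 CPM in Cd209a cells and 234 CPM in macrophage cells. Zbtb46, a factor of conventional DCs, was under the minimum at 28.7 and 6.73 CPM, and Irf4 was at 1.82 and 9.25 CPM in cDC1 and Cd209a cells.

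Genes of the 2 presentation routes differed in which parts were higher. On the class I side, 22 of 34 listed genes reached 50 CPM, 6 were higher by 2-fold or more and 2 (Cybb and Rac2) lower, against 5.62% and 9.47% of all genes tested. The share of lower genes was thus near that of all genes, and the median log2 ratio of the 22 was 0.19. The immunoproteasome subunit Psmb9 was at 670 CPM in cDC1 cells and 160 CPM in Cd209a cells (4.20-fold), its activator Psme1 at 772 CPM against 320 CPM (2.41-fold), and the peptide transporter chains Tap1 and Tap2 were 2.15-fold and 2.21-fold higher. Rab32, a small GTPase of lysosome-related organelles, was 3.75-fold higher. Another immunoproteasome subunit, Psmb8, missed the limit at 1.95-fold (1031 CPM against 530 CPM). The class I heavy chain H2-K1, whose paralogs may share reads, and B2m were near equal, at 814 and 2981 CPM in cDC1 cells against 918 and 3252 CPM in Cd209a cells. Cybb, the catalytic chain of the phagocyte NADPH oxidase, was 19.1-fold lower (10.9 CPM against 209 CPM).

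On the class II side, 12 of 14 listed genes reached 50 CPM. None was at least 2-fold higher and 4 were lower, against 5.62% and 9.47% of all genes tested. H2-Ab1 stood at 14910 CPM in cDC1 cells, 20322 CPM in Cd209a cells and 13313 CPM in macrophage cells, and the invariant chain Cd74 at 32659 CPM against 53490 CPM in Cd209a cells, both within 2-fold. The 4 lower genes were the peptide loader chain H2-DMb2 (167 CPM against 376 CPM) and 3 lysosomal enzymes of antigen and invariant chain processing, Ctss (563 against 1791 CPM), Ifi30 (293 against 838 CPM) and Lgmn (38.9 against 151 CPM). Cst3, the secreted inhibitor of cysteine proteases such as Ctss, was 3.90-fold higher in cDC1 cells, at 32336 CPM against 8293 CPM. Of 31 listed genes of lysosomes and dead-cell clearance, 23 reached 50 CPM. Of these, 3 were higher (Cst3, Ppt1 and Naaa) and 10 were lower, beside the same 5.62% and 9.47% of all genes. Among the lower were Ctsh, Lamp1 and Ctsd, by 3.82-fold, 3.94-fold and 5.49-fold.

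Sensing and uptake receptors gave a short list of higher genes. Tlr3 had a UMI in 73.4% of cDC1 cells, 3.09% of Cd209a cells and 3.32% of macrophage cells, and after thinning in 25.2%, 1.06% and 1.61%. Tlr11 and Tlr12, sensors of microbial profilin whose sequences are related, were under 50 CPM but found in 31.1% and 14.0% of cDC1 cells, against 4.90% and 0.515% of Cd209a cells. No other Toll-like receptor of the list reached 10 CPM in the cDC1 cells. Cd36, a scavenger receptor for lipids and dead cells, was at 202 CPM in cDC1 cells, 28.0 CPM in Cd209a cells and 203 CPM in macrophage cells, and was found in 88.3% of cDC1 cells at full depth and 44.0% after thinning. Timd4, a receptor for phosphatidylserine known as a mark of resident macrophages, was at 48.7 CPM in cDC1 cells, 5.61 CPM in Cd209a cells and 67.9 CPM in macrophage cells, with a UMI in 31.1%, 3.09% and 19.0% of cells at full depth and in 9.63%, 1.06% and 14.0% after thinning. The lectins Mgl2 and Clec10a are close paralogs between which reads may be split. Mgl2 (26.9 CPM in cDC1 cells, 1392 CPM in Cd209a cells) and Clec10a (6.18 against 344 CPM) were 51.7-fold and 55.7-fold lower. Of the 12 lectin and scavenger genes at 50 CPM or more 2 were higher (Cd36 and Havcr2) and 9 lower, against 5.62% and 9.47% of all genes. One of these 9 is Cd209a, whose direction the choice of the cells fixes.

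Receptors that link cDC1 cells to T cells and to migration were mixed. Of 12 costimulation genes at 50 CPM or more 3 were higher and 4 lower, and of 3 chemokine receptors 1 was higher and 1 lower. Among all genes tested 5.62% were higher and 9.47% lower. Cxcr3, the receptor of Cxcl9 and Cxcl10, was at 85.8 CPM in cDC1 cells and 3.65 CPM in Cd209a cells (interval of the ratio 13.5 to 44.9) and found in 64.0% of cDC1 cells, or 23.4% after thinning. Btla, an inhibitory receptor, was 7.05-fold higher, the checkpoint receptor Havcr2 3.46-fold and the costimulator Cd86 3.39-fold. Tnfsf9, the ligand of 4-1BB, was 11.3-fold lower, and Sirpa, the receptor of Cd47, 33.3-fold lower. Ccr2 was at 230 CPM in cDC1 cells and 409 CPM in Cd209a cells, within 2-fold. Ccr7, which guides DCs to lymph nodes, had 0 UMIs in all 222 cDC1 cells, which allows a share of up to 1.35% of cells with a UMI, taking 3 cells as the limit of a count of 0. Of 6 genes of mature, migrating DCs, 3 or more were found in 19 cells of the library, none of them a cDC1 cell by the rule. All 19 had neither Xcr1 nor Clec9a UMIs. The rule asks for these UMIs, so a mature cell without them could not be counted as a cDC1 cell. Of the 19, 15 had no Cd209a UMI either, and their subset was not tested.

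**Figure D3:**
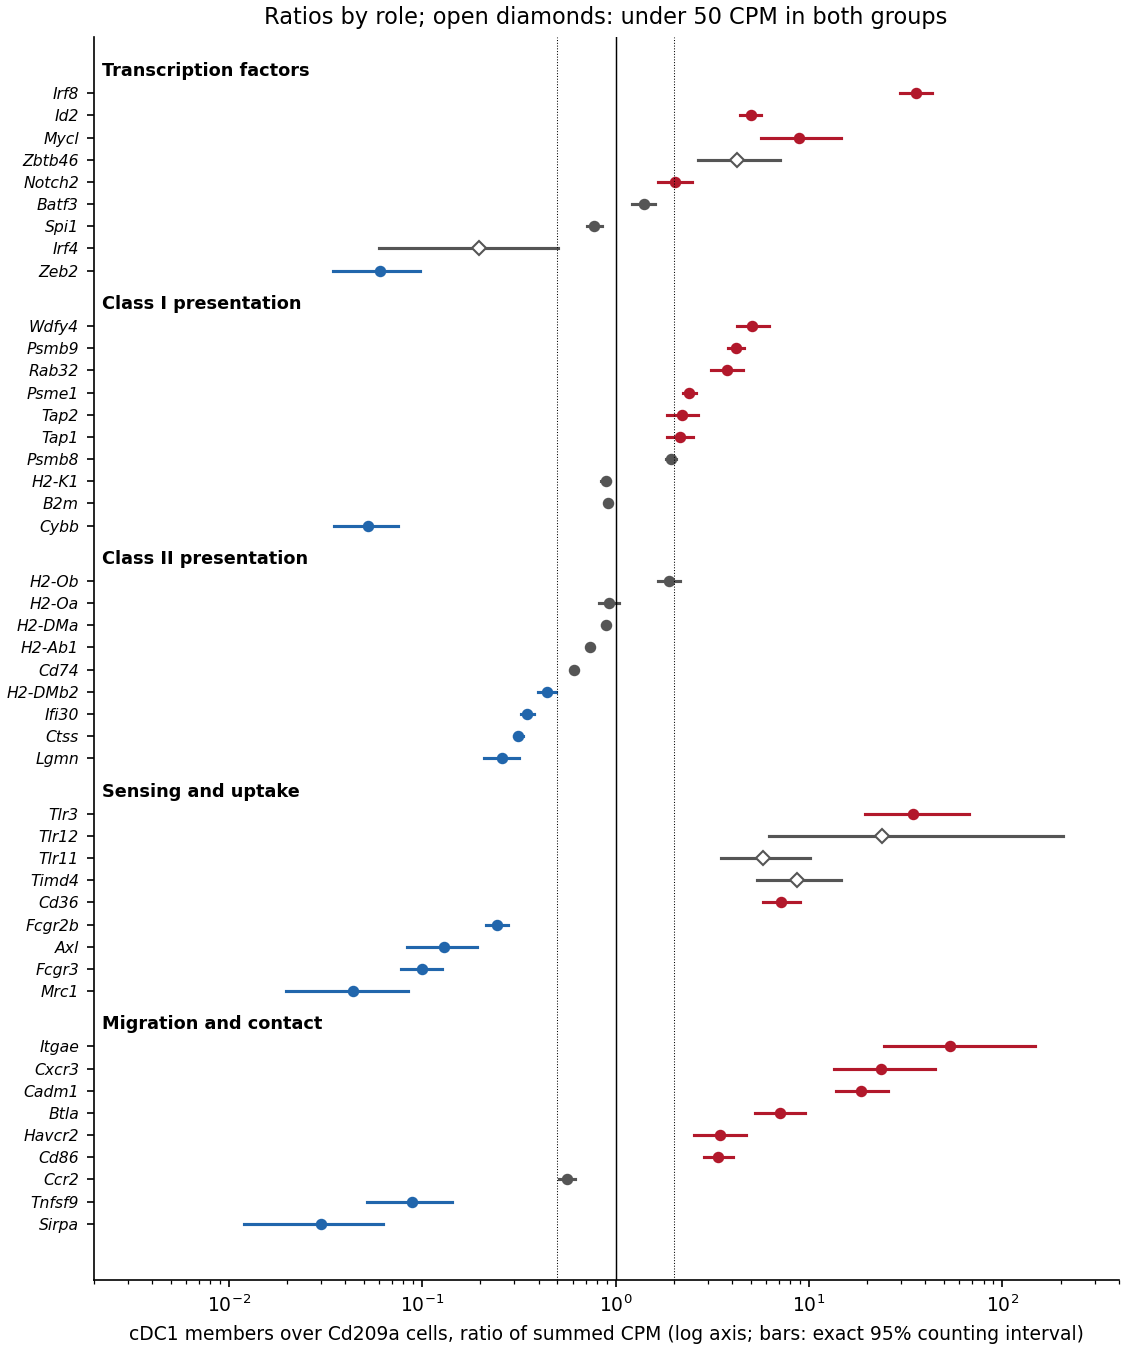
Ratio of summed CPM, cDC1 cells over Cd209a cells, for genes grouped by role on a log axis, with bars for the exact 95% counting interval and dotted lines at 2-fold. Red genes were at least 2-fold higher and blue genes at least 2-fold lower in cDC1 cells, grey genes were neither, and open diamonds were under 50 CPM in both groups. Of the class I genes drawn 6 are red and 1 is blue, and of the class II genes 4 are blue.

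Of 21 listed growth factor and cytokine receptors, 8 reached 50 CPM. Of these, 1 (Flt3) was at least 2-fold higher, 1 (Csf1r) lower and 6 neither, where 5.62% of all genes tested were higher and 9.47% lower. Flt3, whose ligand sustains DCs, was at 116 CPM in cDC1 cells, 50.5 CPM in Cd209a cells and 0 by the choice of the macrophage cells, and had a UMI in 74.3% of cDC1 cells and 32.2% of Cd209a cells, or 27.5% and 14.1% after thinning. Csf1r, the receptor of the macrophage growth factor, was 7.24-fold lower (20.7 against 150 CPM). Of 32 listed chemokines and cytokines, 8 reached 50 CPM, none was higher and 5 were lower, beside the same 5.62% and 9.47% of all genes. The lower ones included Ccl9 (55.6 against 997 CPM) and Il1b (12.0 against 88.6 CPM). Il12b, Il12a and Il23a had 0 UMIs in the cDC1 cells, and Cxcl9 was at 17.8 CPM in 3.15% of them.

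Of the 15 lower genes with the largest lower bound of the fold, 13 had at least 50 CPM in macrophage cells too. S100a4, a calcium-binding protein, was at 74.2 CPM in cDC1 cells, 2000 CPM in Cd209a cells and 901 CPM in macrophage cells. Tmem176a and Tmem176b, neighbouring genes for membrane channels, were 26.9-fold and 24.0-fold lower. The integrin chain Itgam was at 2.18 CPM against 106 CPM, the actin-capping protein Capg at 21.8 CPM against 480 CPM, and Wfdc17 at 65.8 CPM against 1285 CPM. The interferon-induced membrane protein Ifitm3 was 8.46-fold lower (194 CPM against 1636 CPM in Cd209a cells and 1710 CPM in macrophage cells), and the Fc receptor chain Fcer1g 6.01-fold lower. The remaining leaders on this side were Tnip3, Mcemp1, Ifitm6, Fcrls and Pilrb2, at 1.46 to 9.82 CPM in cDC1 cells.

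Markers of other cell types were summed by list. The 20-gene macrophage list summed to 894 CPM in cDC1 cells, 2753 CPM in Cd209a cells and 37465 CPM in macrophage cells. Over 19 of these genes the cDC1 level was 1.46% of the macrophage level at the median, with Timd4 highest at 71.8% and Lyve1 lowest at 0.394%. Adgre1 and Fcgr1 are among the 19, and their high level in macrophage cells is fixed by the choice of those cells. C1qa still gave a UMI in 51.4% of cDC1 cells, at 76.7 CPM against 5709 CPM in macrophage cells. Lists of T and NK cells, B cells, neutrophils and endothelial cells summed to 0.364, 2.18, 0.727 and 13.5 CPM in cDC1 cells. The monocyte list summed to 468 CPM in cDC1 cells, 854 CPM in Cd209a cells and 1241 CPM in macrophage cells, the first including 230 CPM of Ccr2 and 126 CPM of Plac8, with Ly6c2 at 2.91 CPM. The fibroblast list summed to 259, 344 and 196 CPM, of which the actin-severing protein Gsn gave 256 CPM in cDC1 cells, and 4 of its 10 genes, Col1a1 among them, had 0 UMIs there. The cardiomyocyte list was higher in cDC1 cells than in both other groups and is described below. Without the cells that held 10 or more C1q UMIs, 219 cDC1 cells and 331 Cd209a cells remained, with 121 genes higher and 208 lower.

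Promoter windows of the rule genes and of the leading cDC1 genes were read from RefSeq (GRCm38.p6, 250 bases before to 50 after a gene's start), because Irf8 binds known motifs. Searched on both strands were an IRF repeat (GAAA, any 2 bases, GAAA), found in 3.45% of all 32544 windows read, an ETS-IRF composite (GGAA, any 2 bases, GAAA), in 2.73%, and an AP-1 site (TGANTCA), in 7.79%. An AP-1-IRF composite (TTTC, any 4 bases, TGANTCA), which contains the AP-1 site, was in 0.120%, and an E-box (CAGGTG) in 20.3%. These shares are per window, and a gene can have several. Of the 15 leading higher genes 11 had windows: 2 held an IRF repeat, 0 an ETS-IRF composite, 1 an AP-1 site and 6 an E-box in at least 1 window. Of the 15 leading lower genes 13 had windows, and 1, 1, 2 and 4 of them held these motifs. Shown are the windows of both genes that define the cells, of the 2 higher genes with an IRF repeat, and of Cd209a for contrast, each 5′ to 3′ on the gene's strand with every match of a searched motif in capitals.
Xcr1 (chr9:123861980-123862279, minus strand): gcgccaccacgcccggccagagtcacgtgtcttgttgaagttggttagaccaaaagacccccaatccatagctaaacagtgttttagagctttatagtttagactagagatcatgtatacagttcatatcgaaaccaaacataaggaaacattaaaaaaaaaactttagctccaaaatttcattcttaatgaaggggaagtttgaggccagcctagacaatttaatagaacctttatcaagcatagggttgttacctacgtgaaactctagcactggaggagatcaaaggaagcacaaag
Clec9a (chr6:129408612-129408911, plus strand): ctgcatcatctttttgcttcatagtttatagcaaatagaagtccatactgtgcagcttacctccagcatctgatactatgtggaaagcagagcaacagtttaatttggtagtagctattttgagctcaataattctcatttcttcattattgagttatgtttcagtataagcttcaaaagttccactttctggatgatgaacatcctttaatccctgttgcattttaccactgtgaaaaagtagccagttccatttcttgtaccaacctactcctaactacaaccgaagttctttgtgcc
Ifi205 (chr1:174031706-174032005, minus strand): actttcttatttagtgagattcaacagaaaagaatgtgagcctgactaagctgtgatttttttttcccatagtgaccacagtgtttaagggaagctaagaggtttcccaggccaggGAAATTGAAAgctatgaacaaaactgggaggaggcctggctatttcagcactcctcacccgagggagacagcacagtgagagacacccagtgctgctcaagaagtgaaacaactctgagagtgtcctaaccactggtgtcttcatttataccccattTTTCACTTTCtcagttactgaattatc
Fcrla (chr1:170927534-170927833, minus strand): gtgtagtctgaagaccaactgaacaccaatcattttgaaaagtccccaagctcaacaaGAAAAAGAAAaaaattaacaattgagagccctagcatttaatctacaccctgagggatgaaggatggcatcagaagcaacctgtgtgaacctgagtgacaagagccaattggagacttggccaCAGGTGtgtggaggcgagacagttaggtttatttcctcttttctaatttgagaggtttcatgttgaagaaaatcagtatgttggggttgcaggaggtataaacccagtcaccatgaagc
Cd209a (chr8:3748935-3749234, minus strand): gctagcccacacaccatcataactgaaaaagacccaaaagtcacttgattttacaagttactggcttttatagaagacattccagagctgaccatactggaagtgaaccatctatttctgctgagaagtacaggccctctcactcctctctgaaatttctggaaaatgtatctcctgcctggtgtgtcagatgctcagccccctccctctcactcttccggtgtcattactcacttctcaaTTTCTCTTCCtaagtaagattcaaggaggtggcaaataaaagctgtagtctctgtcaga
Xcr1 and Clec9a held none of these letters in their windows. Ifi205 held 2 IRF repeats, 1 on each strand. Fcrla held 1 IRF repeat and 1 E-box, and Cd209a 1 ETS-IRF composite on the opposite strand. A match is a description of letters and not of binding.

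Cardiomyocyte RNA was carried by 65 of the 222 cDC1 cells, which had at least 1 UMI of the ventricular myosin light chain Myl2, cardiac troponin I (Tnni3) or myoglobin (Mb). That is 29.3% (interval 23.4 to 35.7%), against 32 of 388 Cd209a cells (8.25%, 5.71 to 11.4%) and 98 of 422 macrophage cells (23.2%, 19.3 to 27.6%). Myl2 was found in 53 cDC1 cells, Mb in 40 and Tnni3 in 39, and 28 held all 3 genes, against 0 Cd209a cells and 7 macrophage cells. After thinning to 3000 UMIs the shares were 37 of 218 cDC1 cells (17.0%), 11 of 377 Cd209a cells (2.92%) and 59 of 372 macrophage cells (15.9%). At equal depth the share with any UMI was close in cDC1 and macrophage cells and lower in Cd209a cells.

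The amount per cell, counted at full depth, told the groups apart more than the share. The cDC1 cells were deeper (median of 12321 UMIs, against 8784 in Cd209a and 5200 in macrophage cells). A fixed number of UMIs is reached more easily in deeper cells, and these counts were not thinned. At least 5 UMIs of the 3 genes were found in 29 cDC1 cells (13.1%, interval 8.93 to 18.2%), in 0 of 388 Cd209a cells and in 4 of 422 macrophage cells. At least 10 were found in 17 cDC1 cells, 0 Cd209a cells and 1 macrophage cell. The highest cDC1 cell held 108 UMIs, against 2 in the highest Cd209a cell and 14 in the highest macrophage cell. Summed levels were 209 CPM in cDC1 cells, 10.4 CPM in Cd209a cells and 67.9 CPM in macrophage cells. Within the cDC1 cells 10 cells held 62.0% of these UMIs, and the 29 cells with 5 or more held 90.2%.

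**Figure D4:**
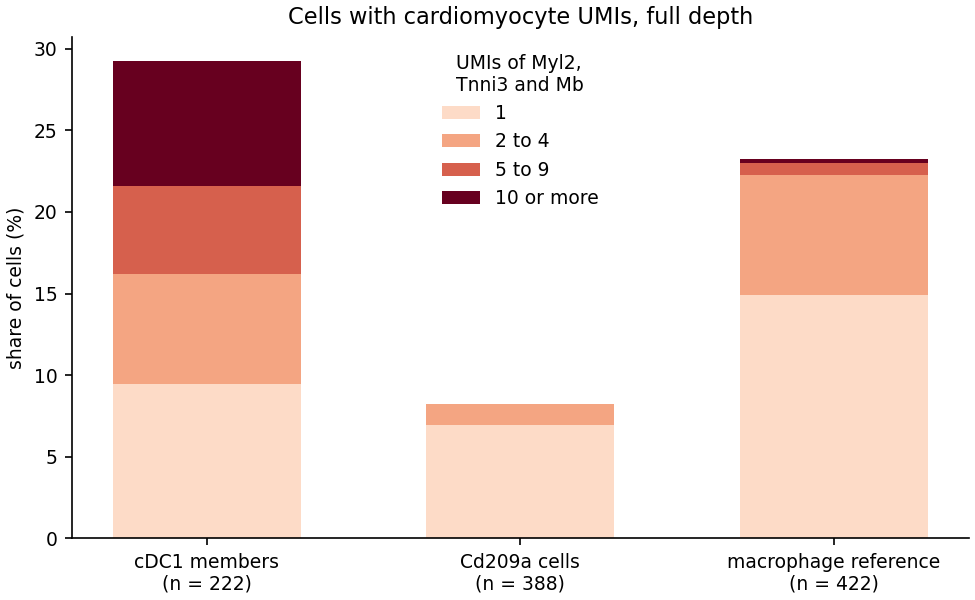
Share of cells at full depth with 1, 2 to 4, 5 to 9 and 10 or more UMIs of Myl2, Tnni3 and Mb in sum, stacked, for 222 cDC1 cells, 388 Cd209a cells and 422 macrophage cells. The bars reach 29.3%, 8.25% and 23.2%, and the shades for 5 or more UMIs make up 13.1%, 0% and 0.948% of cells.

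The 3 genes came in close proportions in cDC1 and macrophage cells. Myl2 made up 44.3% of their UMIs in cDC1 cells, 43.2% in Cd209a cells and 48.5% in macrophage cells, Mb made up 31.5%, 18.9% and 33.1%, and Tnni3 24.2%, 37.8% and 18.3%, the Cd209a values resting on 37 UMIs. Across the 222 cDC1 cells their UMIs went together, with Pearson correlations of 0.84 to 0.93, as a description of cells that share 1 library. In the list of 20 cardiomyocyte genes, 19 had UMIs in cDC1 cells, and the list summed to 457 CPM in cDC1 cells, 46.0 CPM in Cd209a cells and 172 CPM in macrophage cells. In the cDC1 cell with the highest share, the list made up 3.43% of all UMIs.

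The cDC1 cells with 5 or more of these UMIs and those with none both held the markers of the type. Irf8 was at 1185 and 1183 CPM, Cd24a at 1054 and 906 CPM, Itgae at 104 and 88.6 CPM and Naaa at 1971 and 1669 CPM, with median depths of 11345 and 12325 UMIs and mitochondrial shares of 1.86% and 1.74%. Of the 38 cells of the cardiomyocyte-rich cluster, 35 had 5 or more, including all 21 cDC1 cells there. Cardiomyocyte genes were not left out of the clustering, so this cluster is no separate evidence for their presence. In the 44 cDC1 cells with at least 2 UMIs over the 157 with 0, and leaving out the cardiomyocyte list, 18 of 2081 genes (0.865%) were higher by 2-fold or more and 32 (1.54%) lower. The largest ratios were of muscle genes outside the list, Cox8b (65.3), Cox7a1 (28.8), Chchd10 (21.1) and Tpm1 (13.4). Cxcl9, Isg15 and Irf7 followed with ratios of 4.99, 4.37 and 3.92, and had a UMI in 6.82%, 13.6% and 15.9% of the 44 cells. Retnla, a secreted protein of myeloid cells, was 2.50-fold higher, with a UMI in 88.6% of the 44 cells and 89.8% of the 157. Egr1, an immediate early gene, was 2.20-fold higher. The lower genes were led by cell cycle genes such as Ube2c and Top2a.

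Cells that only just missed the rule held the same RNA in unlike amounts. Of the 91 cells with Xcr1 and Clec9a and some Cd209a, 25 had at least 1 UMI (27.5%) and 10 had 5 or more (11.0%), at 254 CPM in sum. Of the 65 cells with a sum of 1 and no Cd209a, 16 had at least 1 UMI (24.6%) and 2 had 5 or more (3.08%, interval 0.375 to 10.7%), at 68.8 CPM. The whole library had 48 cells with 5 or more, of which 29 were cDC1 cells and 10 were among those 91. The 91 and the 65 cells had median depths of 12807 and 7163 UMIs, and all these shares are at full depth. The steady-state macrophage library had a UMI in 52.5% of cells and 5 or more in 4.41%, and the day 11 library in 18.8% and 0.514%. Median UMIs per barcode were 10737.5 and 8224 there, against 7164 in the library described here. Summed levels, which do not depend on depth, were 86.8 and 31.6 CPM, against 90.1 CPM here. The source of this RNA was not tested. Leaving out every cell with 2 or more of these UMIs left 178 cDC1 cells and 383 Cd209a cells, with 124 genes higher and 209 lower of 2218. These totals equal those of all cells but are not the same genes. Myl2, Tnni3 and Mb were among the 124 of all cells, and the cells left out held most of their UMIs.

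A share of the cDC1 cells was cycling. After thinning to 3000 UMIs, 61 of 218 cDC1 cells (28.0%, interval 22.1 to 34.4%) expressed 3 or more of 28 cell cycle genes by their UMIs, against 54 of 377 Cd209a cells (14.3%, 11.0 to 18.3%) and 27 of 372 macrophage cells (7.26%, 4.84 to 10.4%). Unthinned shares were 42.3%, 31.4% and 15.6%. By the stricter sign of a Mki67 or Top2a UMI after thinning, the shares were 13.3% in cDC1 cells and 10.3% in Cd209a cells, with overlapping intervals of 9.09 to 18.5% and 7.46 to 13.9%, and 3.50% in macrophage cells. Of the 28 genes 9 reached 50 CPM, and the nucleotide synthesis gene Rrm2 alone was at least 2-fold higher in cDC1 cells than in Cd209a cells (70.9 against 30.8 CPM). None was lower, and of all genes tested 5.62% were higher and 9.47% lower.

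Cycling cDC1 cells kept most markers of the type but held less Itgae. In the 61 cycling cells over the 157 others, with the cell cycle list left out, 188 of 2157 genes (8.72%) were higher by 2-fold or more and 20 (0.927%) lower. The higher genes include unlisted genes of cell division, such as Cdca3 (85.3-fold) and Cdc20 (77.95-fold), so their count partly follows from how the cells were split. Itgae was at 44.8 CPM in cycling cells and 115 CPM in the others (ratio 0.390, interval 0.273 to 0.546). Irf8 was at 1168 and 1170 CPM, Naaa at 1624 and 1766 CPM, and Xcr1 at 194 and 255 CPM. The microtubule regulator Stmn1, a known companion of division, was at 1163 CPM in cycling cells and 35.5 CPM in the others. Timd4 and Cyp8b1 were lower in the cycling cells, with ratios of 0.444 and 0.455. Median depths were 14619 and 11779 UMIs. Cardiomyocyte UMIs of any number were found in 14 of the 61 (23.0%, interval 13.2 to 35.5%) and 48 of the 157 (30.6%, 23.5 to 38.4%), with overlapping intervals. The summed level of Myl2, Tnni3 and Mb was 84.3 CPM in the cycling cells and 240 CPM in the others, where 6 and 20 cells held 5 or more of these UMIs. Tnni3, Myl3, Tpm1, Mb and Myl2 were the 5 lower genes with the smallest ratios, 0.336 to 0.357.

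The cDC1 cells differed among themselves more in some genes than in others. Over 218 thinned cells and 1896 genes at 50 CPM or more, the variance of UMIs over cells divided by their mean had a median of 1.06, where counting alone gives about 1, and 71 genes exceeded 2. Irf8 had 1.10, Cd24a 1.47, Itgae 1.60 and Naaa 1.60, all above that median. A gene with few UMIs per thinned cell can give a value near 1 although the cells differ, as Cxcr3 (0.953, with 0.262 UMIs per cell) may. A low mean does not force this, since Mb, with 0.179 UMIs per cell, had 4.90. Ccl17, a chemokine that attracts Ccr4-bearing T cells, had 14.5: it was found in 36 cDC1 cells, and 10 cells held 91.3% of its UMIs, the highest 69. The 8 cDC1 cells with 5 or more Ccl17 UMIs had 3189 CPM, against 12.8 CPM in the other 214, a contrast that the split on Ccl17 itself fixes. Cd209a cells were uneven too: 31 with 5 or more Ccl17 UMIs had 5825 CPM, against 20.4 CPM in the other 357. In sum Ccl17 was at least 2-fold lower in cDC1 cells than in Cd209a cells. Ccl22, which shares its receptor, was at 10.3 and 12.1 CPM in the 8 and the 214 cDC1 cells, with a UMI in 1 and 10 of them. These levels rest on 33 Ccl22 UMIs, 22 of them in 1 cell. Plac8 had 4.55 and the cell cycle companions Hmgb2 and Stmn1 8.72 and 4.73. Cd207 (langerin) was found in 24.8% of cDC1 cells and Treml4 in 33.3%, against 1.55% of Cd209a cells for each.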

How the data were processed

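RNA was counted in 3 droplet libraries of cells sorted from mouse hearts, 1 per group. The deposited values are counts, whole numbers of UMIs per gene and cell barcode, not normalized; per the submitters' processing notes the authors used Cell Ranger and STAR on mm10, with versions not given in the sources used here, and how barcodes were called is not stated.

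Kept were cells in which 500 or more genes were detected and mitochondrial UMIs made up no more than 10%. Each group's UMIs of a gene were added up and divided by all its UMIs to give CPM. A gene counted as higher or lower with at least 50 CPM in either group and at least 2-fold. Ratios have conditional binomial and shares Clopper-Pearson 95% intervals, which treat each UMI or cell as independent and so leave out differences between cells and animals. No p-value is given, since there is 1 library per group. Shares were also taken after thinning cells to 3000 UMIs, which left out 4 cDC1, 11 Cd209a and 50 macrophage cells. Doublets were kept. Removal of the 25 of 1780 barcodes with the highest Scrublet scores, 2 of them cDC1 cells and 3 Cd209a cells, was an alternative; the automatic Scrublet threshold marked 2. Clusters used 2000 variable genes without the 3 rule genes, 30 components, 15 neighbours and Leiden resolution 1.0.

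Leading genes were the 15 in each direction with the largest lower bound of the fold among those found in at least 20% of cells of the higher group, leaving out the rule genes and mitochondrial, ribosomal protein, haemoglobin, immunoglobulin, sex-linked, cardiomyocyte and unnamed genes; listed genes are named besides. The cells, gene lists and leading-gene rule were chosen with earlier results of these data known. The procedure was tested on simulated data. Of 50 genes set 4-fold higher and 50 set 4-fold lower, it called 50 and 49, and of 1758 unchanged genes 0. The simulated sums held counting error only, as the intervals assume. They cannot show how the intervals do where cells differ. Gene positions came from GENCODE vM21 and promoter windows from RefSeq, both on the mm10 (GRCm38) assembly. The tools were Python 3.11.15, numpy 2.4.6, scipy 1.17.1, pandas 2.3.3, scanpy 1.11.5 and matplotlib 3.10.9.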

Additional observations from a re-analysis of the deposited data

How the results depend on the processing

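The number of cDC1 cells ran from 187 to 313 over the limits tried: 287 with at least 1 UMI of Xcr1 and Clec9a, 187 with at least 3, 313 without the limit on Cd209a, 215 with at most 5% mitochondrial UMIs, 220 without the highest Scrublet scores and 222 with at least 200 genes. The counts of higher and lower genes moved with the limits on level and fold: 248 and 411 of 4340 genes at 20 CPM or more, 68 and 117 of 1189 genes at 100 CPM or more, and 68 and 122 at 3-fold or more. Under the other 12 settings they stayed between 121 and 154 higher and between 207 and 231 lower genes, and none of the 30 leading genes changed direction in any of them. The sizes were less stable: of the ratios of these genes 38 moved out of their own 95% interval and 322 stayed within it. Cystm1 was 66.2-fold higher in all cells, 21.3-fold in thinned cells and 20.5-fold in the Xist cells, and Gcsam 54.9-fold in all cells, 149-fold in thinned cells and 153-fold in the Y-linked cells. The share of cDC1 cells with cardiomyocyte RNA was 17.0% after thinning and 19.8% with at least 2 UMIs, and the share of cycling cDC1 cells was 42.3% without thinning and 33.9% with at least 2 genes. At clustering resolutions of 0.5 and 1.5, clusters rich in cDC1 cells held 184 and 217 of the 222. No paired analysis was possible because each group has 1 library. Depth limits the share of cells with a UMI for genes under about 50 CPM, and the number of animals, which the labels do not give, limits every comparison.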

Other observations

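The labels give no sex, and the library held cells of both. Among the cDC1 cells 84 had UMIs of Xist and none of 4 Y-linked genes (Ddx3y, Eif2s3y, Uty and Kdm5d), 85 had Y-linked UMIs and no Xist, 41 had neither and 12 had both; among Cd209a cells these numbers were 109, 140, 126 and 13. This split, added after seeing the data, gave 2 sets of cells. A cell could enter a set on 1 UMI, and 12 cDC1 cells had both signals, so some cells may be placed wrongly. The sets stem from different animals only as far as the placing is right. Irf8 had ratios of 39.3 among Xist cells and 32.6 among Y-linked cells, Naaa 5.23 and 5.40, and Batf3 1.22 and 1.61. Cardiomyocyte UMIs were found in 30 of the 84 Xist cDC1 cells (35.7%, exact interval 25.5 to 46.9%) and 24 of the 85 Y-linked ones (28.2%, 19.0 to 39.0%), and 5 or more in 14 and 9. The number of animals within each set is not known, so the sets are not replicates.

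The rule also found 4 cells in the day 11 library and 3 in the steady-state macrophage library. Of these 7, 6 had 0 UMIs of Cd24a and Itgae and 42 to 239 UMIs of C1qa. The remaining cell, from day 11, had 0 Xcr1, 5 Clec9a, 12 Cd24a, 62 Naaa, 6 Itgae, 43 Irf8 and 3 Flt3 UMIs with 2 of C1qa, in a sort for CD64-bearing macrophages. Of the 222 cDC1 cells 212 carried Xcr1. Retnla, a secreted myeloid protein, had a UMI in 89.6% of cDC1 cells at 261 CPM, against 2172 CPM in Cd209a cells and 4069 CPM in macrophage cells, so its share in cDC1 cells exceeded the 72.8% of the shallower macrophage cells although its level was 6.41% of theirs. Lyz2 was at 9.69% of the macrophage level.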
